A study of Mus musculus with 28 samples.

Results

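The proteins of the cytosolic ribosome were followed at the level of their mRNA in mouse dendritic cells stimulated with lipopolysaccharide (LPS), and at the level of ribosome footprints in resting cells. Members were the entries of the RNA table with any name in the form of a ribosomal protein symbol (Rpl, Rps or Rplp and a number) or the name Rpsa, and the ribosomal S6 kinases were left out. This gave 71 of the 3147 listed genes, made up of 28 proteins of the small subunit, 40 of the large subunit and the 3 paralogs Rps27l, Rpl22l1 and Rpl36al. The footprint table held 80 such names among its 6250 entries, and 69 members were in both tables. Of the 71 entries, 9 joined several names, and the entry of Rps27a joined it with several other genes, so no RNA level is given for it.

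The cells were grown with GM-CSF from bone marrow of female C57BL/6J mice of 6 to 8 weeks. They received LPS, which coats Gram-negative bacteria and was here of the rough form from E. coli K12, at 100 ng per ml, or mock treatment, and polyadenylated RNA was sequenced 1, 2, 4, 6, 9 and 12 h later. Each of these 12 groups had 2 libraries, and cells at 0 h gave 2 more. The medium of both arms was exchanged at time 0 for a protein labelling experiment, so LPS and mock cells shared that change. Ribosome footprints, the mRNA fragments that ribosomes protect from nuclease, came from 2 preparations of unstimulated cells treated with cycloheximide. Whether both libraries of a group came from different mice or cultures is not stated in the labels, and the spread behind the p-values may thus be technical only.

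Values were TPM, transcript levels corrected for length and scaled to a fixed total per library, so the sequencing depth behind each value is unknown and a level is always a share of the listed genes. Of 9 measured interferon response genes, 9 rose in LPS cells at 6 to 12 h (median log2 fold change 7.78), which checks the group labels. Markers of dendritic cells (7 of 15 listed) were present in all RNA libraries, with the integrin Itgax at 442 to 1087 TPM. Markers of macrophages (6 of 8 listed) and of neutrophils and their precursors (7 of 10 listed) were present too, and markers of T and B cells were not listed. The dendritic cell markers summed to 12859 to 22845 TPM in late LPS libraries, against 9163 to 18107 TPM in late mock libraries. The macrophage markers summed to 8007 to 28287 TPM in late LPS libraries, against 11153 to 39707 TPM in late mock libraries. The neutrophil markers summed to 1165 to 3043 TPM in late LPS libraries, against 2492 to 7193 TPM in late mock libraries. Single markers within each list went both ways in late means, LPS against mock. Lyz2, the largest of the macrophage list, was at 17904 against 23649 TPM, but Cd14 at 622 against 184 and Fcgr1 at 278 against 50.7 TPM. Lcn2 was at 498 against 136 TPM, and the other neutrophil markers were lower. Clec10a (13.3 against 167 TPM) and Itgax (674 against 810 TPM) were lower, and the other dendritic cell markers higher. Late means 6, 9 and 12 h throughout. No measured marker was at 0, and the part of these other cells in the results was not tested. In bulk RNA, fewer cells of a type and less RNA per cell cannot be told apart.

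The ribosome reads mRNA with its small subunit and joins amino acids with its large subunit, and its proteins are needed in fixed proportions. The transcripts of ribosomal proteins are among the most abundant in growing cells. They typically begin with a short run of pyrimidines (a terminal oligopyrimidine tract), through which the kinase complex mTORC1 and the RNA-binding protein Larp1 control how strongly they are translated. Dendritic cells that sense LPS through Tlr4 turn to the synthesis of cytokines, interferon-induced proteins and antigen-presenting molecules.

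The start regions of 5 members that the results turn on are shown because pyrimidine runs at the start are the shared sequence feature of the family. The sequences are from RefSeq on the build GRCm38.p6, and each holds the 15 bases before the annotated start of transcription and the 15 bases from it, 5′ to 3′ on the strand of the gene. Capitals mark the longest unbroken run of C and T in the window.
Rps27l (chr9:66946071-66946100, plus strand): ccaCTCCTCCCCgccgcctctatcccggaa
Rps27 (chr3:90213634-90213663, minus strand): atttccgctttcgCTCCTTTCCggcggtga
Rpl14 (chr9:120571502-120571531, plus strand): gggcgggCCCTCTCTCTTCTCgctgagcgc
Rplp2 (chr7:141447636-141447665, plus strand): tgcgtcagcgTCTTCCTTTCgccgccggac
Rpl15 (chr14:18270972-18271001, minus strand): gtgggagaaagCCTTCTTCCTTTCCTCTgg
The run spanned 9 bases in Rps27l, 9 in Rps27, 14 in Rpl14, 10 in Rplp2 and 17 in Rpl15. It crossed the annotated start in Rps27, Rpl14, Rplp2 and Rpl15, and ended before it in Rps27l, for which RefSeq gives 2 starts and the one with the longer run is shown. Such windows were drawn for 12 members, and the run crossed the start in 6 of them, ended before it in 2 and began at or after it in 4. Of the members with the most extreme footprint differences, the run ended before the start in Rps15a and lay after it in Rps12. Promoters were matched for 53 members. A run of at least 8 pyrimidines within 20 bases of an annotated start was found in 29 of 53 members (54.7%), against 19.8% of the listed genes and 18.4% of all promoters. The letters CCGGAAG, the core of the motif bound by ETS-family factors such as Gabpa, searched on both strands over 300 bases, were in 41.5% of the members' promoters, against 22.9% of those of the listed genes and 9.93% of all promoters. The median late log2 fold change was -0.59 for the 29 members with a pyrimidine run and -0.52 for the 24 without, so these medians differed little. The median log2 difference of resting footprints from 0 h RNA, with each library centred on its median shared gene, was -1.14 with a run. It was -1.33 for the 23 members without a run that were in both tables. Neither difference was tested.

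Ribosomal protein transcripts made up a large part of the listed mRNA. All 71 were above 0 in every library, with mean levels of 116 TPM for Rps15a, 338 TPM for Rpl22l1 and 403 TPM for Rpl22 at the low end. Toward the high end stood the stalk proteins Rplp1 at 10492 TPM and Rplp2 at 8844 TPM, then Rpl38 at 8316 TPM. Summed over the members, their share of the listed TPM at 1 h was 18.7% and 22.7% in the 2 LPS libraries, against 21.2% and 22.0% in the 2 mock libraries. The LPS libraries held 16.7% and 20.3% at 2 h and 17.7% and 20.6% at 4 h, against 20.7% and 24.1% (2 h) and 20.2% and 21.4% (4 h) in mock libraries. The arms overlapped at 1 and 4 h, and at 2 h both LPS libraries lay just below both mock libraries. At 6 h the share was 15.9% and 18.1% in LPS cells, against 20.1% and 24.9% in mock cells. At 9 h it was 14.1% and 19.3% in LPS cells, against 20.7% and 24.0% in mock cells. At 12 h it was 12.9% and 16.8% in LPS cells, against 22.3% and 24.1% in mock cells, and cells at 0 h had 18.0% and 24.1%. Every LPS library of 6, 9 and 12 h lay below every mock library of those times. At 12 h the members averaged 14.8% in LPS cells and 23.2% in mock cells. The small and large subunit contributed about equally, with 6.60% and 8.48% from the small and 6.02% and 8.02% from the large subunit in the 12 h LPS libraries.

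**Figure D1:**
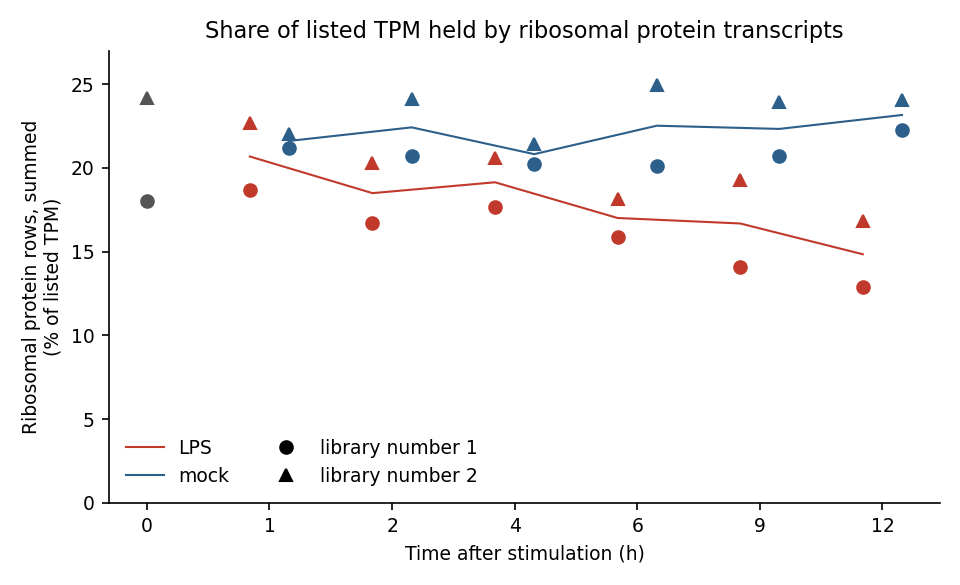
Share of all listed TPM held by the 71 ribosomal protein entries (y axis, percent) against time after stimulation (x axis, hours, evenly spaced). Points are single libraries, circles number 1 and triangles number 2, red for LPS, blue for mock and grey for 0 h, and lines join the group means; the 12 h LPS libraries sit at 12.9% and 16.8%, and the 12 h mock libraries at 22.3% and 24.1%.

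The first question was which members responded to LPS once the response was established. The late effect, the mean log2 fold change of LPS over mock at 6, 9 and 12 h, was tested with limma on log2(TPM + 1) over all listed genes, with Benjamini-Hochberg adjusted p under 0.05. By this test 60 of 71 members fell and 1 rose, against 47.7% of all listed genes that fell and 15.5% that rose. The median member was at -0.57, and the median listed gene at -0.43. Of the small subunit 23 of 28 fell (median -0.57), and of the large subunit 35 of 40 (median -0.57). The median late effect of the members was -0.61 in the libraries numbered 1 and -0.52 in those numbered 2, with 67 of 71 below 0 in each.

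These counts depend on the scale. TPM has a fixed total, so a rise of some genes lowers the share of all others, and dividing each library by its median ratio over genes moved the median listed gene from -0.43 on the log2 scale to -0.03. On that scale 7 members fell and 3 rose in the late effect, against 25.9% and 26.2% of listed genes, and the median member was at -0.16. The 7 that fell on both scales were Rpl14, Rpl8, Rps18, Rpl11, Rps6, Rpl18 and Rps16. Quantile normalization, another scaling, gave 53 that fell and 1 that rose, against 31% and 22.3%. Calls named below are on the deposited TPM unless the rescaled value is named.

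**Figure D2:**
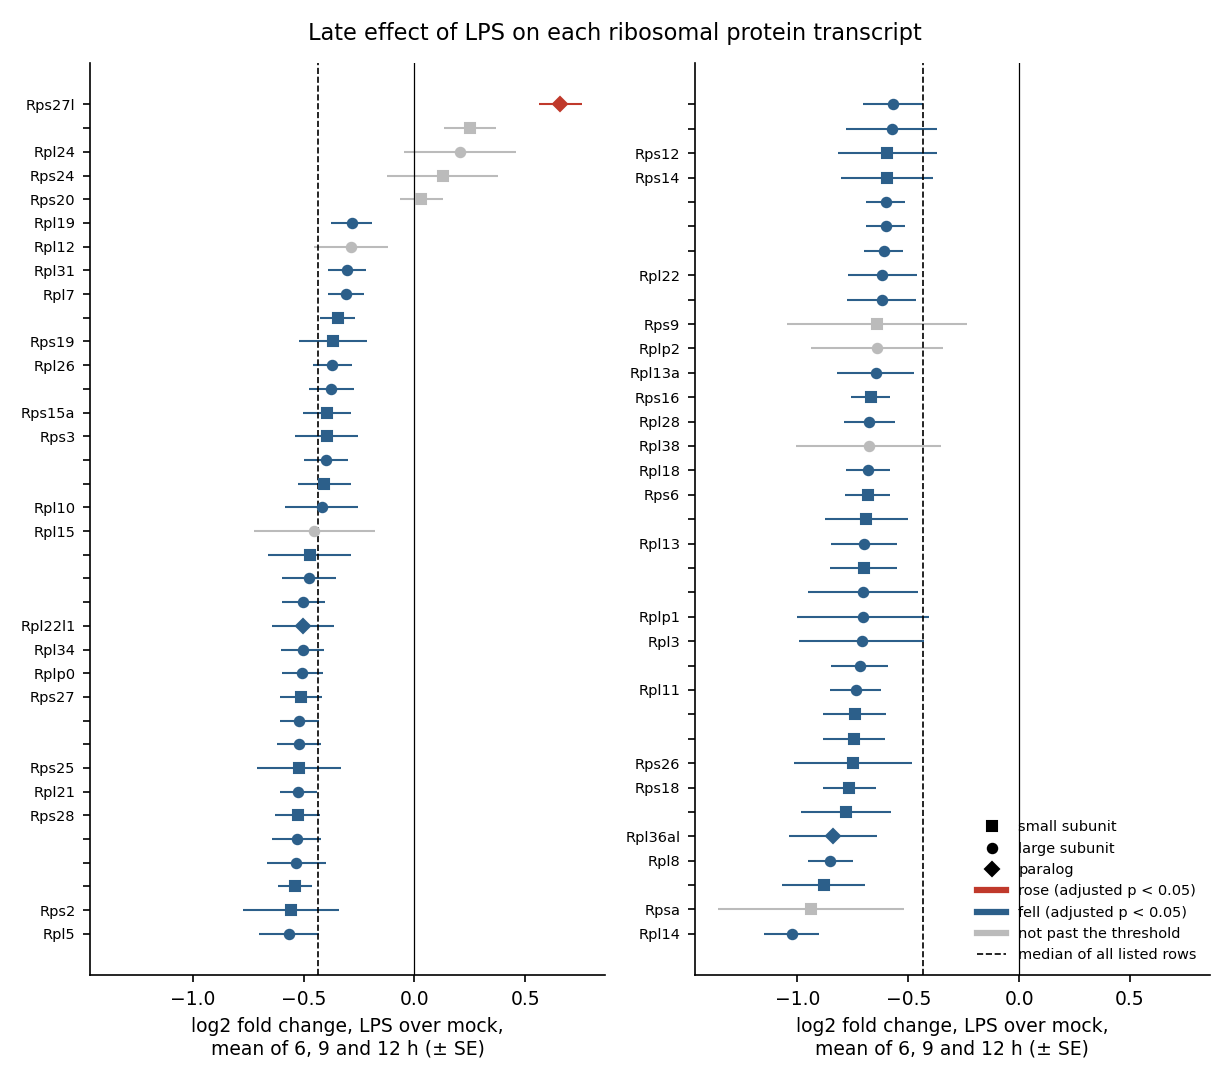
Late log2 fold change of LPS over mock (x axis, mean of 6, 9 and 12 h, ± SE from limma) for each of the 71 members (y axis; names are given for members described in the text). Squares are small subunit, circles large subunit and diamonds paralogs, coloured by call at an adjusted p under 0.05; most members lie below 0 and around or below the dashed line at -0.43, the median of all listed genes, and Rps27l stands at 0.66.

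The course in time was read against that of all listed genes. The median member stood 0.17 below the median listed gene at 1 h and 0.04 below it at 2 h, on the log2 scale. At 4 h it stood 0.23 above, and at 6 h 0.12 above, while at 9 h it was 0.16 and at 12 h 0.36 below. The median listed gene was at -0.05, -0.16, -0.46, -0.44, -0.44 and -0.39 at the 6 times, and the median member at -0.22, -0.20, -0.23, -0.32, -0.60 and -0.75. On the rescaled values the median member was at 0.22 at 4 h, where 70 of 71 were above 0, and at -0.38 at 12 h, where 64 of 71 were below 0. Quantile normalization did not show the higher standing at 4 and 6 h: there the median member was at -0.29 at 4 h, 0.14 below the median listed gene, and lay 0.49 below it at 12 h. These medians are a description of the list.

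By single times, 0 members passed the limma test at 1 h (0.794% of listed genes fell, 3.27% rose) and 0 at 2 h (8.04% fell, 6.39% rose), with 14 and 2 members at an unadjusted p under 0.05. At 4 h 1 member fell, Rps16 (-0.40), while 29.2% of listed genes fell and 8.74% rose. At 6 h 6 members fell and 1 rose, beside 30% and 11.2% of listed genes. At 9 h 38 fell and 1 rose, beside 30% and 10.1%. At 12 h 45 fell and 0 rose, beside 26.8% and 10%. The share of members that fell was thus 1.41% at 4 h, 8.45% at 6 h, 53.5% at 9 h and 63.4% at 12 h. After rescaling, 8 members fell and 2 rose at 12 h (13.9% and 16.7% of listed genes). On that scale 0 fell and 1 rose at 4 h (12.9% and 14.1%), 0 fell and 3 rose at 6 h (14.7% and 18%), and 0 fell and 2 rose at 9 h (12.8% and 16.1%). Libraries with the same number deviated together, so a fit with the replicate number as a block was also made. With the block, 7 members fell at 1 h (6.1% of listed genes), 6 at 2 h (16.7%), and 8 at 4 h (44.9%), where 2 rose (12.1%). At 6 h 34 fell (42.9%) and 1 rose (14.8%) with the block. At 9 h 56 fell (43.3%) and 2 rose with it, beside 428 of 3147 listed genes that rose. At 12 h 61 fell (39.1%) and 0 rose, beside 445 of 3147 listed genes that rose. In the late effect 65 members fell (57.7%) and 2 rose with the block, beside 585 of 3147 listed genes that rose. The test of the change between 4 h and 12 h itself, a contrast chosen after seeing the data, called 0 members (1.02% of listed genes fell, 2.76% rose), with 15 at an unadjusted p under 0.05, and 14 fell with the replicate block (4.67% of listed genes). Over all 6 times together, the limma F test called 45 members, of which 44 had a mean fold change below 0 and 1 above (42.6% and 14.6% of listed genes). After rescaling 2 were below and 4 above (23.2% and 22.1%). With the replicate block 63 were below and 2 above, beside 59.9% of listed genes below and 647 of 3147 above.

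Single libraries moved these counts. At 9 h 39 members were called with all libraries, and the count was 21 without the first mock library and 25 without the second. At 12 h it was 45 with all libraries, 25 without the first mock library, 29 without the second and 27 without the first LPS library. At 6 h the count was 7 with all libraries and 4 without either LPS library, at 4 h it was 0 without either LPS library, and at 1 h it was 7 without the first LPS library.

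**Figure D3:**
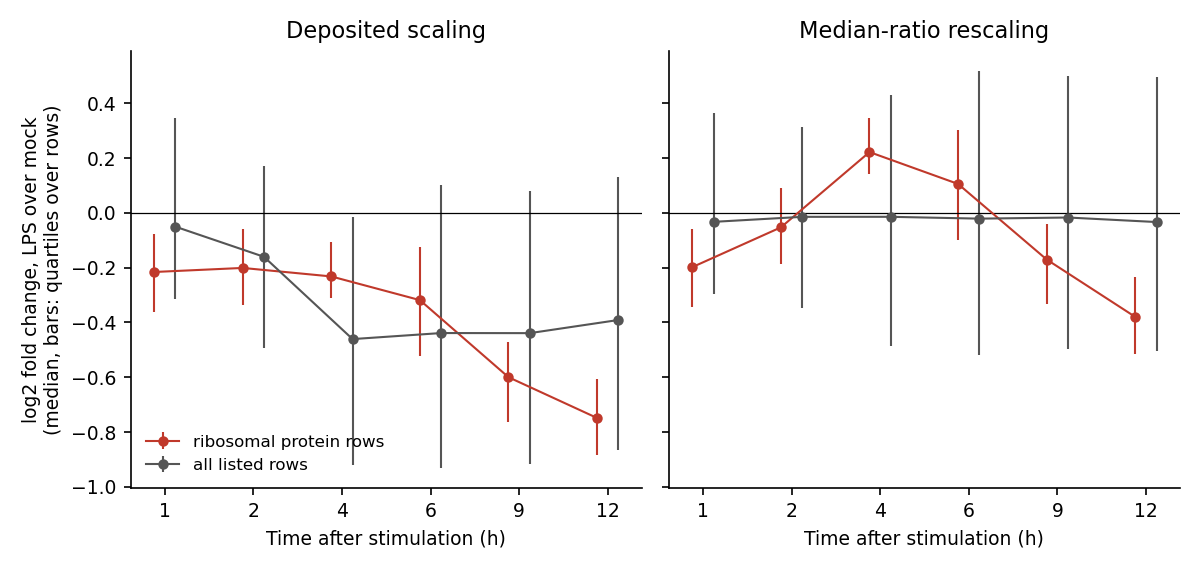
Median log2 fold change of LPS over mock (y axis) at each time (x axis, hours, evenly spaced) for the 71 members (red) and all 3147 listed genes (grey), with bars for the quartiles over genes. On the deposited TPM (left) and after median-ratio rescaling (right) the members lie above the listed genes at 4 and 6 h and below them at 9 and 12 h; quantile normalization, not drawn, puts them 0.14 below at 4 h.

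Among large subunit proteins, Rpl14 had the lowest late effect of all members. Its level in LPS cells was 776 and 863 TPM at 6 h, 573 and 905 TPM at 9 h, and 521 and 690 TPM at 12 h. In mock cells it was 1304 and 1674 TPM at 6 h, 1383 and 1478 TPM at 9 h, and 1338 and 1492 TPM at 12 h, so the arms did not overlap. The late log2 fold change was -1.02 ± 0.12 (SE, limma adjusted p = 2.02e-06), and -0.62 after rescaling (adjusted p = 0.000992). At 12 h it reached -1.24 ± 0.22. Rpl8, a core protein near the catalytic centre of the large subunit, ran from 1017 to 1539 TPM with a median of 1308 TPM in the 6 late LPS libraries, and from 2154 to 2636 TPM with a median of 2267 TPM in the 6 late mock libraries. Its late log2 fold change was -0.85 ± 0.10 and -0.44 after rescaling. Rpl13 fell (-0.70 ± 0.15), with 1972 to 3091 TPM in late LPS libraries, median 2577 TPM, and 3777 to 4804 TPM in late mock libraries, median 4032 TPM. Rpl18 ran from 274 to 340 TPM in late LPS libraries, median 305 TPM, and from 459 to 520 TPM in late mock libraries, median 506 TPM. Rpl8, Rpl13 and Rpl18 showed no overlap between the arms.

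Other large subunit proteins moved less or not past the test. Rpl19 had the late value nearest to 0 among the members that fell (-0.28 ± 0.09), and it lay at 0.13 after rescaling. Without the first mock library of 6 h its adjusted p was 0.0521. Rpl24, a late-joining protein of the subunit surface, had 1768 to 4046 TPM in late LPS libraries, median 2451 TPM, and 1613 to 2804 TPM in late mock libraries, median 2259 TPM. The arms overlapped, and the log2 fold change of 0.21 ± 0.25 did not pass (adjusted p = 0.482). Rpl12, which binds near the stalk base, was at -0.29 ± 0.17 (adjusted p = 0.141), and at 0.12 after rescaling. Without 1 library it ran from -0.44 to -0.13, and it passed without the first LPS library of 9 h (adjusted p = 0.0204). Rpl15 was at -0.45 ± 0.27 (adjusted p = 0.159) and fell with the replicate block (adjusted p = 0.0141). Leaving out 1 late library moved it between -0.68 and -0.23, and it passed without the second mock library of 6 h or the first LPS library of 9 h (lowest adjusted p 0.035).

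In the small subunit, Rps18, in the head of the subunit, fell on both scales (-0.77 ± 0.12, and -0.36 after rescaling), with 1852 to 2903 TPM in late LPS libraries, median 2280 TPM, and 3575 to 4351 TPM in late mock libraries, median 3937 TPM. Rps6, the target of the S6 kinases, fell on both scales too (-0.68 ± 0.10, and -0.28 after rescaling). Its late LPS libraries held 759 to 1083 TPM (median 902 TPM) and its late mock libraries 1375 to 1593 TPM (median 1442 TPM).

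Several small subunit transcripts lay near or above 0. Rps20, also in the head of the subunit, held 2735 to 3733 TPM in late LPS libraries, median 3574 TPM, and 2641 to 3734 TPM in late mock libraries, median 3402 TPM, so its ranges coincided. Its log2 fold change was 0.03 ± 0.10 (adjusted p = 0.787), and after rescaling it rose (0.44, adjusted p = 0.00108). The sign of its unscaled value turned to -0.02 without the second mock library of 6 h, to -0.04 without the first LPS library of 9 h and to -0.0024 without the first LPS library of 12 h. Rps24, mutated in some families with Diamond-Blackfan anaemia, was at 0.13 ± 0.25 and overlapped between arms. Its value turned to -0.0094 without the second LPS library of 9 h and to -0.03 without the second LPS library of 12 h.

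Some joined entries paired a member with a pseudogene or a predicted gene. Of these, Rps2 (-0.56 ± 0.22), Rpl34 (-0.50 ± 0.10) and Rpl31 (-0.30 ± 0.09) fell, and after rescaling none of the 3 passed, with Rpl31 at 0.10.

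Across all 6 late libraries of each arm, 32 members had every LPS value below every mock value and 1 had every LPS value above, against 30.2% and 10.3% of listed genes. After rescaling this held for 3 members below and 2 above, against 14.6% and 17.1% of listed genes.

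The stalk is the arm of the large subunit that recruits translation factors, built from Rplp0 and copies of Rplp1 and Rplp2. Rplp0 fell with little scatter, with 1536 to 1808 TPM in late LPS libraries (median 1645 TPM) and 2105 to 2587 TPM in late mock libraries (median 2318 TPM). Its late log2 fold change was -0.51 ± 0.09 (limma adjusted p = 0.000148). Rplp1 held 4175 to 14262 TPM in late LPS libraries, median 7430 TPM, and 9257 to 17967 TPM in late mock libraries, median 11271 TPM. Its fall of -0.71 ± 0.30 passed narrowly (adjusted p = 0.0484) and was lost when any of 9 of the 12 late libraries was left out, with values between -0.97 and -0.44. Rplp2 was at -0.64 ± 0.30 (adjusted p = 0.0694), with 4090 to 11784 TPM in late LPS libraries, median 6934 TPM, and 7585 to 15611 TPM in late mock libraries, median 10355 TPM, and fell with the replicate block (adjusted p = 0.000471). Without 1 library Rplp2 ran from -0.88 to -0.40 and passed in 3 of 12 cases, without the first mock library of 6 h or the second LPS library of 9 h or of 12 h. None of the 3 passed after rescaling.

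The wide ranges of Rplp1 and Rplp2 followed the library number. The libraries numbered 2 were higher than those numbered 1 in 13 of 13 groups for Rplp2 (mean log2 difference 0.71) and Rpl38 (0.79), and in 12 of 13 for Rplp1 (0.63), Rps9 (0.94) and Rpsa (0.98). At 0 h Rpsa had 3146 TPM in library 1 and 10768 TPM in library 2. Rpl3 went the other way, lower in number 2 in 13 of 13 groups (-0.69), with 1143 TPM in library 1 and 505 TPM in library 2 at 0 h. By the number term of the blocked limma fit, 27 members were higher and 21 lower in number 2, against 26.9% and 36% of listed genes. What differed between the numbered libraries is not given by the labels and was not tested.

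This split bears on members whose effect was large but not called. Rpsa, the laminin receptor precursor and a small subunit protein, had 1910 to 8245 TPM in late LPS libraries, median 3864 TPM, and 4720 to 11930 TPM in late mock libraries, median 6890 TPM. Its late log2 fold change of -0.94 ± 0.42 missed the threshold (adjusted p = 0.0597) and passed with the replicate block (adjusted p = 0.000562). Without the second LPS library of 9 h it was -1.28 and passed (adjusted p = 0.0111), and without the first it was -0.59. Rpl38, linked in mice to the translation of Hox transcripts, was at -0.68 ± 0.33 (adjusted p = 0.0807) and fell with the block (adjusted p = 0.000537). Without 1 library it ran from -0.94 to -0.41 and passed in 3 of 12 cases, without the first mock library of 6 h or the second LPS library of 9 h or of 12 h. Rps9 was at -0.64 ± 0.41 (adjusted p = 0.177) and fell with the block (adjusted p = 0.0106). Without 1 library Rps9 ran from -0.99 to -0.29, and it passed without the second LPS library of 9 h (adjusted p = 0.0348).

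The paralogs stood apart from each other. Rps27l, a near copy of Rps27 that is a known target of p53, was the 1 member that rose in the late effect on the deposited scale. With the replicate block 1 small subunit member rose too. In LPS cells Rps27l held 2415 and 2117 TPM at 6 h, 2293 and 1984 TPM at 9 h, and 1728 and 1766 TPM at 12 h. In mock cells it held 1186 and 1214 TPM at 6 h, 1334 and 1158 TPM at 9 h, and 1401 and 1475 TPM at 12 h, with 1345 and 1279 TPM at 0 h. All late LPS libraries were above all late mock libraries. The late log2 fold change was 0.66 ± 0.10 (limma adjusted p = 1.71e-05), and 1.07 after rescaling. By time, Rps27l was at 0.43 ± 0.17 at 4 h (adjusted p = 0.0505, and 0.0201 with the block), 0.91 ± 0.17 at 6 h (adjusted p = 0.000352), 0.78 ± 0.17 at 9 h (adjusted p = 0.00153) and 0.28 ± 0.17 at 12 h (adjusted p = 0.204, and 0.00875 after rescaling).

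Its parent Rps27 fell, with 1968 to 2863 TPM in late LPS libraries, median 2384 TPM, and 2947 to 3713 TPM in late mock libraries, median 3387 TPM (-0.51 ± 0.09). The ratio of Rps27l to Rps27 within a library is not changed by 1 factor per library, as in the deposited and the median-ratio scaling. At 6 h it was 0.994 and 0.739 in LPS cells, against 0.352 and 0.412 in mock cells. At 9 h it was 1.10 and 0.848 in LPS cells, against 0.385 and 0.312 in mock cells. At 12 h it was 0.878 and 0.696 in LPS cells, against 0.430 and 0.433 in mock cells, with no overlap at any of these times. The log2 ratio differed by 1.17 between the arms. An exact permutation test of the labels within each time gave p = 0.00926, two-sided (adjusted p = 0.0185 over 2 paralog pairs). This is the smallest p that its 216 arrangements allow. The test shuffled the libraries of a time freely and did not keep the library numbers paired. Paired shuffling would allow fewer arrangements, and its smallest p would be larger. At 1 h the ratio was 0.371 and 0.452 in LPS cells and 0.308 and 0.464 in mock cells, which overlapped. At 2 h it was 0.497 and 0.570 in LPS cells and 0.297 and 0.393 in mock cells, and at 4 h 0.654 and 0.592 in LPS cells and 0.339 and 0.437 in mock cells. The 2 transcripts are alike in their coding part, and 98.7% of the 30-base stretches of Rps27 and 30.0% of those of Rps27l also occur in transcripts of other genes, so reads could have been split between copies.

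**Figure D4:**
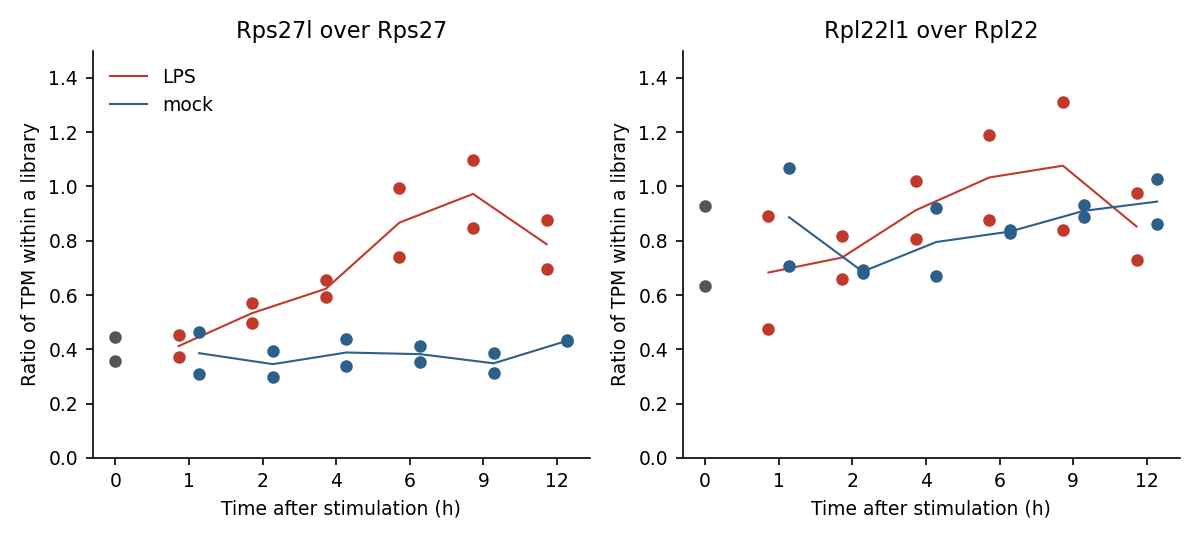
Ratio of the TPM of a paralog to that of its parent gene within each library (y axis) against time (x axis, hours, evenly spaced), for Rps27l over Rps27 (left) and Rpl22l1 over Rpl22 (right). Points are libraries, red LPS, blue mock and grey 0 h, with lines through group means; the late LPS ratios of Rps27l to Rps27 run from 0.696 to 1.10 and the late mock ratios from 0.312 to 0.433, while those of Rpl22l1 to Rpl22 overlap.

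Rpl22l1, the paralog of Rpl22, fell with its parent. It held 232 to 372 TPM in late LPS libraries, median 293 TPM, and 330 to 489 TPM in late mock libraries, median 429 TPM (-0.50 ± 0.14). Rpl22, whose protein also binds RNA outside the ribosome and acts in lymphocyte development, held 237 to 376 TPM in late LPS libraries, median 319 TPM, and 394 to 532 TPM in late mock libraries, median 487 TPM (-0.62 ± 0.16). Their ratio was 0.729 to 1.31 in late LPS libraries and 0.830 to 1.03 in late mock libraries, a log2 difference of 0.11 (exact permutation p = 0.444, two-sided). Rpl36al, the paralog of Rpl36a, had 639 to 1401 TPM in late LPS libraries, median 902 TPM, and 1288 to 2089 TPM in late mock libraries, median 1575 TPM (-0.84 ± 0.20), overlapping at their edges.

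Some members are known for work outside the ribosome or for disease when mutated. Rpl5 and Rpl11, which together bind the p53 regulator Mdm2, fell to 276 to 498 TPM (median 474 TPM) and 976 to 1246 TPM (median 1119 TPM) in late LPS libraries, against 504 to 653 TPM (median 631 TPM) and 1372 to 2022 TPM (median 1929 TPM) in late mock libraries. Neither overlapped between the arms. Their late log2 fold changes were -0.57 ± 0.14 for Rpl5 and -0.74 ± 0.11 for Rpl11. Rpl13a, known from human monocytes as part of a complex that silences inflammatory mRNAs after interferon-gamma, was at -0.65 ± 0.17. Its entry also names a pseudogene and a small nucleolar RNA. Rpl26, which in human cells binds p53 mRNA, was at -0.37 ± 0.09, and at 0.04 after rescaling.

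Some calls of this kind rested on few libraries. Rps3, which also has a role in DNA repair and in NF-kappa B binding, was at -0.40 ± 0.14 and lost its call without 5 of the 12 late libraries in turn, with values between -0.49 and -0.30. Rps19, mutated in Diamond-Blackfan anaemia, was at -0.37 ± 0.15 and lost it without 11 of 12 (values -0.50 to -0.23). Rps14, lost in a human myelodysplastic syndrome, was at -0.60 ± 0.21 and lost it without 4 of 12 (values -0.76 to -0.43). Rpl10, at -0.42 ± 0.16, lost it without 7 of 12 (values -0.58 to -0.26), and Rps25, at -0.52 ± 0.19, without 6 of 12 (values -0.62 to -0.43). All 5 kept a value below 0 in each of these settings. Rps3 and Rps19 lay at 0.01 and 0.04 after rescaling.

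At the start of the response, changes were small. In the early effect, the mean of 1 and 2 h, 5 members fell and 0 rose, against 9.72% and 8.39% of listed genes. They were Rpl22l1 (-0.51 ± 0.17), Rpl28 (-0.44 ± 0.14), Rpl11 (-0.43 ± 0.14), Rps28 (-0.42 ± 0.13) and Rpl18 (-0.36 ± 0.12), with limma adjusted p between 0.0293 and 0.0486. The count went to 0 after rescaling (6.26% fell and 9.95% rose) and to 23 with the replicate block (19.4% fell), and ranged from 0 to 10 when 1 library was left out. It was 0 without the first mock or the second LPS library of 1 h, and 10 without the first LPS library of 1 h. Without the second mock library of 1 h it was 2. Without 1 library of 2 h it was 1 for the first mock, 3 for the second mock and 1 for each LPS library. Across listed genes the early effect went with transcript length (Spearman 0.325 over 3124 genes), and the members were short (median of the longest transcripts 975 bases, against 2856 for listed genes). The part of length in the early values was not tested.

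The difference between the late and the early effect was tested directly. It was below 0 and called for 8 members and above 0 for 1, against 22.2% and 8.17% of listed genes. The lowest of those called were Rpl14 (-0.76 ± 0.20), Rpl13 (-0.75 ± 0.24) and Rpl8 (-0.64 ± 0.16), and the 1 above 0 was Rps27l (0.54 ± 0.15). Rpsa (-1.09 ± 0.66) was lower but did not pass (limma adjusted p = 0.231). At the other end Rps20 (0.26 ± 0.15) did not pass either. With the replicate block 30 were below and 2 above (37.2% and 11.9% of listed genes), and after rescaling 0 were below and 3 above (10.5% and 13.3%), among them Rps27l and Rps20. Without the first or the second mock library of 1 h the count of members called was 4, and without the first mock or the second LPS library of 2 h it was 5.

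In mock cells the members showed no change that passed the test. Late mock against 0 h gave 0 calls with limma among the members and 0% of listed genes, with 2 members at an unadjusted p under 0.05. The median member was at 0.10 and the median listed gene at -0.07. This comparison shares its mock libraries with the late effect.

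Ribosome footprints showed a narrower range of levels than the mRNA. In resting cells, the 69 members in both tables had mean footprint levels of 84.0 to 1525 TPM, with a median of 552 TPM, and mean 0 h RNA levels of 122 to 10312 TPM, with a median of 2308 TPM. The standard deviation of the log2 level over members was 0.556 in footprints and 1.19 in RNA, while over all 2896 shared genes it was 1.81 in both. Members held 6.86% and 6.92% of the shared TPM in the footprint libraries, against 17.2% and 23.8% in the 0 h RNA libraries. The 2 assays differed in library preparation, and footprints were not poly(A)-selected, so only the place of a gene among all shared genes was read. Across members, footprint and RNA levels had a Spearman correlation of 0.327 (n = 69), and across all shared genes 0.799, as a description.

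With every library centred on its median shared gene, footprints were lower than 0 h RNA for 47 of 69 members and higher for 4, by limma at an adjusted p under 0.05, against 13.6% and 14.1% of shared genes. The median member was at -1.25 and the median shared gene at 0.11. Of the small subunit 19 of 27 were lower (median -1.52), and of the large subunit 27 of 39 (median -1.13). The lowest was Rps12, with 235 and 270 TPM in footprints and 3909 and 6522 TPM in RNA (-3.47 ± 0.33, adjusted p = 0.00584), in an entry that also names 2 small nucleolar RNAs. Rplp1 had 658 and 624 TPM in footprints and 6066 and 14558 TPM in RNA (-3.02 ± 0.45). Rpsa had 432 and 428 TPM in footprints and 3146 and 10768 TPM in RNA (-2.90 ± 0.58). Rps26 was at -2.46 and Rps14 at -2.36. Leaving out 1 library moved these values between -3.71 and -2.33 for Rplp1, -3.85 and -1.96 for Rpsa, -3.04 and -1.88 for Rps26, and -2.93 and -1.80 for Rps14, and each stayed past the threshold. In each of these 5, both footprint libraries were below both RNA libraries in raw TPM. This does not set them apart, since it also held for members with a centred difference above 0. Rpl5, for example, had 388 and 419 TPM in footprints and 715 and 569 TPM in RNA (centred 0.19).

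The 4 members that were higher in footprints had low RNA levels. Rps15a had 601 and 613 TPM in footprints, near the median member, and 113 and 131 TPM in RNA, the lowest of all members (3.16 ± 0.25, limma adjusted p = 0.00378). Rpl15 had 644 and 625 TPM in footprints and 654 and 325 TPM in RNA (1.31 ± 0.34, and 0.86 to 1.76 without 1 library). Rpl18 was at 1.03 ± 0.23 and Rpl21 at 0.91 ± 0.23. Next came Rpl22 at 0.56 ± 0.33 and Rps3 at 0.21 ± 0.27, which did not pass, and both lay below 0 without centring, at -0.29 and -0.64. These are differences in standing among all shared genes, and the raw levels of Rpl15 and Rpl21 overlapped. Rpl21 had 482 and 493 TPM in footprints and 503 and 435 TPM in RNA. With 1 footprint library left out, 22 and 21 members were called instead of 51, and Rpl15, Rpl18 and Rpl21 were no longer called in either case. Rps15a kept its value between 3.00 and 3.32 when any 1 of the 4 libraries was left out. Of the 30-base stretches of Rps15a, 57.8% also occur in transcripts of 16 other genes. For the low members Rps12, Rplp1 and Rpsa the share was 90.5%, 76.0% and 54.7%. Over the 71 members this share ran from 9.42% to 98.7%, with a median of 63.2%, and had a Spearman correlation of -0.08 with the footprint difference, and its part in single members was not tested.

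**Figure D5:**
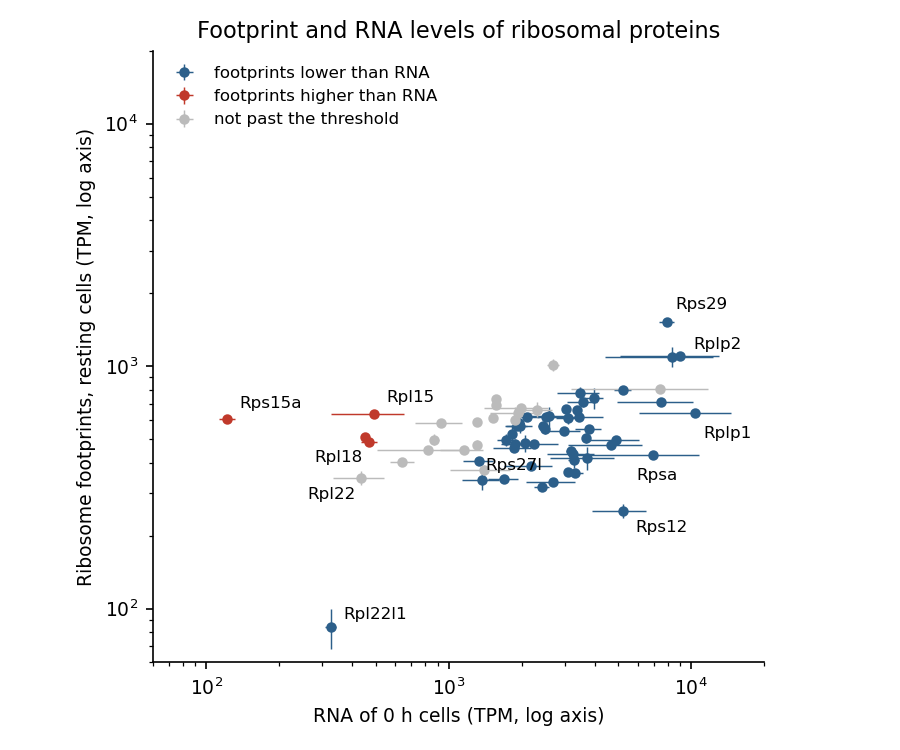
Mean ribosome footprint level of resting cells (y axis, TPM, log scale) against mean RNA level of 0 h cells (x axis, TPM, log scale) for the 69 members in both tables. Bars span the 2 libraries of each assay and colours give the call after centring; RNA spreads from 122 to 10312 TPM, footprints from 84.0 to 1525 TPM with quartiles of 447 and 641 TPM, and Rps15a stands alone at the left.

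Of the paralogs, Rps27l had 450 and 494 TPM in footprints and 1345 and 1279 TPM in RNA (-0.62 ± 0.22, adjusted p = 0.0803), and Rps27 had 356 and 370 TPM in footprints and 3032 and 3589 TPM in RNA (-2.33 ± 0.24, adjusted p = 0.00584). In footprints of resting cells Rps27l was thus above Rps27, and in their RNA below it. As given above, 98.7% of the 30-base stretches of Rps27 and 30.0% of those of Rps27l occur in transcripts of other genes. Reads of Rps27 could thus have been split between copies in either assay, and the part of this was not tested. Rpl22l1 had 68.0 and 100 TPM in footprints, the lowest of the shared members, against 308 and 342 TPM in RNA. Footprints alone listed 11 further names, among them Rpl41, the shortest ribosomal protein, at 2354 and 1541 TPM, Rpl7l1, a paralog of Rpl7, at 77.3 and 76.1 TPM, and Rps27a, separate here, at 692 and 746 TPM.

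Other genes of the translation machinery are given for comparison, from lists drawn up by hand. The small subunit protein Rack1, listed under its older symbol Gnb2l1, fell (-0.76 ± 0.13), and Fau, which encodes a small subunit protein fused to a ubiquitin-like one, was at -0.55 ± 0.24 (adjusted p = 0.0517). Of 27 measured ribosome biogenesis genes, which make and process ribosomal RNA, 23 fell and 1 rose in the late effect (median -1.33), and 20 fell and 1 rose after rescaling. They included the box C/D snoRNP proteins Nop58 (-2.41 ± 0.38), Nop56 (-2.37 ± 0.42) and Fbl (-1.55 ± 0.12), and nucleolin (Ncl, -1.02 ± 0.23). The 1 that rose was Sbds (2.03 ± 0.11), which acts in the last steps of large subunit maturation. Of 31 measured genes on the list of initiation factors 17 fell and 0 rose (median -0.57), with Eif4b at -1.30 ± 0.10. This list also held the poly(A)-binding protein Pabpc4, listed with another name, at -1.67 ± 0.14. After rescaling 8 of the 31 fell and 5 rose. Of 8 measured genes on the list of elongation and release factors 5 fell (median -0.54), with Eef1g at -0.91 ± 0.11. After rescaling 1 fell, Eef1g, and 1 rose, Etf1 (0.29).

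Of 18 other transcripts known to start with a terminal oligopyrimidine tract, 10 fell and 1 rose (median -0.52), and after rescaling 5 fell and 2 rose. The range ran from Eif4b to the intermediate filament gene Vim at 0.46 ± 0.16, while Tpt1 was at -0.15 ± 0.11 and Eef1a1 at -0.13 ± 0.25, neither past the test. The rises and falls in these lists stand beside 15.5% and 47.7% of listed genes on the deposited TPM. After rescaling they stand beside 26.2% and 25.9% of listed genes. Of 37 mitochondrial ribosomal proteins, 26 fell and 1 rose in the late effect (median -0.83), and 17 fell and 3 rose after rescaling. Among 6 measured regulators of ribosome synthesis, 2 rose and 3 fell. Larp1 (0.90 ± 0.11) and Max (1.13 ± 0.13) rose, and Tsc2, listed with another name (-1.17 ± 0.23), Mnt (-0.84 ± 0.19) and Larp4 (-0.78 ± 0.23) fell.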

How the data were processed

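Polyadenylated RNA of 26 libraries was sequenced strand-specifically as short pairs, and ribosome footprints of 2 libraries after rRNA depletion, per the labels' protocols. The submitters' processing notes name Bowtie 0.12.7, RSEM as 1.1117 and as 1.2.3, Bowtie2 and TopHat2 and the mouse build mm9, without saying which step each served. The deposited values were TPM, each RNA library summing to 1000000, so the depth of a library is unknown and no counting error can be given. The unit of the footprint table was read from its values. The 0 h columns were deposited more than once, and 2 identical repeat columns were not used. The labels of the 4 h samples differ in 1 field from their titles and from the table, and the titles were followed.

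From these values log2(TPM + 1) was computed and fitted with limma 3.58.1 (R 4.3.3), with 1 mean for each of 13 groups and 13 residual degrees of freedom, a variance trend and Benjamini-Hochberg adjustment over all 3147 genes. Footprints and 0 h RNA were compared over 2896 shared genes, each library centred on its median. Fold changes are on the log2(TPM + 1) scale and understate changes of low genes. Errors of fold changes are standard errors from limma. Libraries of a group share a number with those of other groups. Same-numbered LPS and mock libraries deviated together at 6 of 6 times (correlations 0.227 to 0.685), so the numbers were taken to pair them. A fit with the number as a block is given for most counts of members and for some single members. Ratios of paralogs were tested by exact permutation within times, without keeping the library numbers paired. Sequence windows and promoters came from RefSeq (GRCm38.p6), and shared 30-base stretches from GENCODE M21 transcripts. These builds differ from mm9, so coordinates are those of the matched sequence and not of the files. The members, gene lists and contrasts were chosen with earlier results of these data known. Named genes were the 6 lowest and 6 highest in the late and in the footprint comparison, the 3 lowest and highest in level and in late minus early, those called early, the stalk, paralogs, joined entries, the 3 widest gaps between arms, and members with known roles outside the ribosome. Some members that this rule names are not reported here. Alternatives were other pseudocounts, a minimum of 10 TPM, 2 other scalings, the block, fits on the compared groups alone, a 1.5-fold threshold and leaving out each library.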

Additional observations from a re-analysis of the deposited data

Results flagged for a closer look

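For 9 members, 8 of which are given here, the LPS effect differed between the late and the early times by limma's test of the difference itself (Benjamini-Hochberg adjusted p under 0.05, log2 scale, late minus early). The difference was below 0 for Rpl14 (-0.76), Rpl13 (-0.75), Rpl8 (-0.64), Rpl4 (-0.63), Rps6 (-0.53), Rpl7a (-0.48) and Rps16 (-0.43), and above 0 for Rps27l (0.54). Leaving out 1 of the 20 libraries in turn ended the call of Rpl7a in 16 cases, of Rpl4 in 10, of Rps16 in 9, of Rpl13 in 4 and of Rps6 in 3, and of Rpl14, Rpl8 and Rps27l in none. After median-ratio rescaling only Rps27l of the 8 kept its call (0.86). No group had the 4 or more samples that a test for single outlying libraries needs.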

How the results depend on the processing

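Counts of called members moved with the scaling, the replicate block, the samples in the fit and single libraries. After median-ratio rescaling, which resets the level of all genes, there were 3 calls at 6 h, 2 at 9 h, 10 at 12 h, 10 in the late effect, 0 in the early effect, 3 in late minus early and 6 over the time course, and quantile normalization gave 3 at 1 h, 5 at 4 h, 28 at 12 h, 8 early and 5 in late minus early. With the replicate block the counts were 7 at 1 h, 6 at 2 h, 10 at 4 h and 35 at 6 h. At 9 h and 12 h they were 58 and 61. They were 67 late, 23 early, 32 in late minus early, 65 over the time course and 14 for 12 h minus 4 h. In the footprint comparison the block ended no call of a named member and added 3. The compared groups alone, with fewer samples, gave 0 at 4 h, 1 at 6 h, 0 at 9 h, 19 at 12 h and 0 early. With the 1.5-fold threshold there were 0 at 4 h, 4 at 6 h, 30 late, 0 early and 4 in late minus early. Other pseudocounts and the minimum of 10 TPM moved no count by over 1.5 times. Without paralogs and joined entries the members held 20.0% of listed TPM in mock cells at 12 h. Leaving out 1 library gave 0 to 7 calls at 1 h, 0 at 2 h, 0 to 1 at 4 h, 4 to 5 at 6 h, 21 to 38 at 9 h, 25 to 39 at 12 h, 52 to 61 late, 0 to 10 early, 4 to 11 in late minus early, 32 to 48 over the time course, 0 for 12 h minus 4 h and for late mock against 0 h, and 21 to 63 for footprints (22 and 21 without 1 footprint library).

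Some values changed sign. Rescaled late values were 0.122 for Rpl12, 0.127 for Rpl19, 0.0119 for Rps15a, 0.0123 for Rps3, 0.0418 for Rps19, 0.0387 for Rpl26 and 0.0617 for Rps29. Without 1 library the late value ran from -0.0373 to 0.1001 for Rps20 and from -0.0272 to 0.282 for Rps24, and the footprint difference from -0.0544 to 0.472 for Rps3 and from -0.438 to 0.625 for Rpl3. Footprint differences without centring were -0.293 for Rpl22, -0.661 for Rpl5, -0.642 for Rps3 and -0.757 for Rpl3. With quantile normalization they were -0.0480 for Rpl5 and -0.0205 for Rpl3. The cause was not tested. With 2 libraries a group and unknown depth, small differences are not detectable.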
